A study of Mus musculus with 54 samples.

Results

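Cytochrome P450 genes were followed across mouse kidney libraries made from dissociated cells, from nuclei and from bulk RNA. A gene was a member when its symbol had the form of a P450 enzyme, Cyp with a family number, a letter and a gene number, and was not marked as a pseudogene by -ps. The rule found 94 members among 33126 genes listed in the files and left out 14 pseudogene symbols. Of the members, 24 were listed in all 18 groups of libraries and 2 were listed in 1 group.

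P450 enzymes are heme proteins of the endoplasmic reticulum or of mitochondria that insert oxygen into lipids, steroids, vitamins and foreign compounds, using electrons passed on by a reductase. The kidney carries out much of this chemistry in the proximal tubule, the first stretch of the nephron, whose segments S1, S2 and S3 run in that order. Enzymes of the Cyp4a and Cyp2j families turn arachidonic acid into products that act on vessels and on salt transport, Cyp27b1 makes and Cyp24a1 breaks down active vitamin D, and several mouse kidney P450 genes are known to depend on androgen. By symbol, 46 members belong with enzymes that act on fatty acids or arachidonic acid, 28 on foreign compounds, 9 on vitamin D, sterols or bile acids, 5 on steroid hormones and 3 on retinoic acid, and 3 have other roles. The rule also takes Cyp4x1os, an antisense RNA of the Cyp4x1 locus and no enzyme, which is counted with the 46. Chromosome 4, with the Cyp2j and Cyp4a clusters, carried 20 members, chromosome 19 carried 17 and chromosome 7 carried 13.

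The study compared ways of taking a kidney apart and of storing it, in 54 libraries in groups of 3, each from 3 kidneys of 3 different mice. The C57BL/6J mice were 19-week-old males. Their kidneys were dissociated at 37 °C with a commercial enzyme kit (warm) or on ice with a cold-active protease (cold), and the suspensions were used fresh, cryopreserved for 6 weeks or fixed in methanol for 3 months for 10x libraries of chemistry version 2, with bulk libraries of both fresh suspensions. The methods name the C57BL/6J animals as AFAPIL.1DEL mice of 1 litter. The Balb/c males, 18 weeks old and also of 1 litter, gave bulk libraries of intact kidney, fresh cold-dissociated cells and sorted nuclei washed 3 times at 500g, with chemistry version 2. The Balb/c females, 15 weeks old wild-type former breeders, gave bulk libraries of intact kidney and of the cold suspension, cold-dissociated cells fresh or cryopreserved for 2 weeks, and nuclei by 3 protocols (3 spins at 500g, 1 spin at 2000g, or a sucrose gradient), with chemistry version 3. All nuclei came from flash-frozen kidney. Between the Balb/c females and males, sex cannot be told apart from age, breeding history, chemistry and batch, nor, in bulk, from RNA selection (poly(A) in the females, ribosomal RNA depletion in the males) and read length. Between C57BL/6J and Balb/c males, strain cannot be told apart from age, batch and the C57BL/6J animals being AFAPIL.1DEL mice.

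Bulk libraries held between 2326998 and 31093949 counts, cell libraries between 983522 and 27869324 and nuclei libraries between 7629138 and 35170947. Levels are given as CPM, counts scaled to the same total of non-mitochondrial counts, in a bulk library or in the summed barcodes of a cell class in 1 library. Proximal tubule-like barcodes were named from marker genes with no member among the genes used for clustering. All 10 proximal tubule markers were higher in them than in the other barcodes of each library used, but the naming used these same markers, so this is no separate check of the name. The cryopreserved C57BL/6J libraries held 2 to 8 such barcodes each and were left out of the comparisons. Segments were named in each clustered set on its own, and not every proximal tubule-like cluster got a segment name. The clusters named S1, S2 and S3 were 2, 2 and 1 of 13 in female cells, 3, 0 and 1 of 9 in male Balb/c cells and 4, 0 and 3 of 14 in C57BL/6J cells. In nuclei they were 2, 2 and 4 of 10 in females and 2, 1 and 2 of 6 in males. Segment shares compared between sets depend on this naming. Median counts per proximal tubule-like barcode ran from 359 to 1240 in the Balb/c male libraries and from 1435 to 5320.5 in the fresh female cells and washed female nuclei. Over all pairs of libraries, the largest number of shared cell barcodes was 101, and the largest share of the smaller library, taken separately, was 2.05%. Many genes are listed at 0 over a whole 10x library, 5409 to 6658 genes in the male Balb/c cells but 0 in the cryopreserved female cells, while 0 to 852 genes a library were found in 1 to 9 barcodes. A listed 0 may therefore stand for a gene that was seen in a few barcodes and set to 0, and does not show an absence of molecules. Where a library of the lower group is listed at 0, the fold is given as a lower bound that assumes 9 counts in each such library. A member was called when the adjusted p of edgeR's quasi-likelihood test was under 0.05 and the log2 fold change was at least 1 in size, and ± stands for the SD of 3 libraries on a level and for the SE on a log2 fold change. Exonic counts of members with near-identical copies (Cyp2d, Cyp2j, Cyp2a4 and Cyp2a5, Cyp4a10 with Cyp4a31 and Cyp4a32, and Cyp4a12a with Cyp4a12b) are uncertain, since reads can fall to either copy.

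The 250 bases before the transcription start of 6 members are shown because the levels of these genes separated male from female Balb/c cells and nuclei without overlap: Cyp2j13, Cyp2e1, Cyp4b1 and Cyp2a4 were high in males, and Cyp2d26 and Cyp2j11 were high in females. They are RefSeq sequences of build GRCm38.p6, read 5′ to 3′ on the strand of the gene, and Cyp2j13 is shown for the first of its 2 listed promoters. The 6 are not the full set of members that differed between the sexes. Cyp4a10, Cyp4a12a, Cyp4a14, Cyp4a31 and Cyp7b1 were also called but had no promoter among the sequences used. Capitals mark matches on either strand to 4 motifs, the TATA box TATAAA, the HNF1 core GTTAAT, the HNF4 site CAAAGTCCA and the STAT5 site TTCNNNGAA.
Cyp2j13, chr4:96077541-96077790, minus strand: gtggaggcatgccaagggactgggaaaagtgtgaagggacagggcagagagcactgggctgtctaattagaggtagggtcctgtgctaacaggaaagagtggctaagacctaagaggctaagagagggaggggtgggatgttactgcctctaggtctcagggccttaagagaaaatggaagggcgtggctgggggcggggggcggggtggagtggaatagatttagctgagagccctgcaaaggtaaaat
Cyp2e1, chr7:140763569-140763818, plus strand: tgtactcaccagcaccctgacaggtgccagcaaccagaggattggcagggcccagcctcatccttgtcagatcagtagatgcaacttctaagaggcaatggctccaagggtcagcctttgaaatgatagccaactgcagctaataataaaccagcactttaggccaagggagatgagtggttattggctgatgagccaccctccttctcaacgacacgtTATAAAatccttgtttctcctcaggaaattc
Cyp4b1, chr4:115647722-115647971, minus strand: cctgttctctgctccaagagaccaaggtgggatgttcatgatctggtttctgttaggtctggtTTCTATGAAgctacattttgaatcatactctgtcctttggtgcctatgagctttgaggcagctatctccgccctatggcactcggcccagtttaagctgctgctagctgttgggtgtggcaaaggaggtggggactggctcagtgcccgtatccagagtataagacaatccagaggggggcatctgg
Cyp2a4, chr7:26306942-26307191, plus strand: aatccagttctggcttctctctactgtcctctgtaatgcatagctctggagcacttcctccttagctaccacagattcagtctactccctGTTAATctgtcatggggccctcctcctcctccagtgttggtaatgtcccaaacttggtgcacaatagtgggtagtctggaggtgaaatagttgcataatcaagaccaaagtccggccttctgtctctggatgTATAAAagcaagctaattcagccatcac
Cyp2d26, chr15:82794246-82794495, minus strand: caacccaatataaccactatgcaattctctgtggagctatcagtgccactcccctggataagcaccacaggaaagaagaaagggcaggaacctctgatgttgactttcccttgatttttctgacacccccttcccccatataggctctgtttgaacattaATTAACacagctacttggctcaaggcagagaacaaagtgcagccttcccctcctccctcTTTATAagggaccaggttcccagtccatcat
Cyp2j11, chr4:96348681-96348930, minus strand: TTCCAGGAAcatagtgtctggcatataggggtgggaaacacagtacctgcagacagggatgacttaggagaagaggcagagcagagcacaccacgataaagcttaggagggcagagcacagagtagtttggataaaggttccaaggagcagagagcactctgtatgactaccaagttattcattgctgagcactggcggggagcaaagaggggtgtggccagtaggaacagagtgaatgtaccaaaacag
Cyp2e1 and Cyp2d26 held the TATA box 31 bases before the start and Cyp2a4 held it 28 bases before. The HNF1 core lay 90 bases before the start of Cyp2d26 and 160 bases before that of Cyp2a4. The letters of the STAT5 site lay 187 bases before the start of Cyp4b1 and 250 bases before that of Cyp2j11, and the window of Cyp2j13 matched none of the 4 motifs. Among 79 promoters of 71 members in the table, 31.6% held the TATA box, 12.7% the HNF1 core, 11.4% the HNF4 site and 5.06% the STAT5 site, against 12.4%, 6.43%, 0.384% and 7.02% of all 32851 promoters of the same length. The 9 with the HNF4 site belonged to Cyp2c40, Cyp2c65, Cyp2c67, Cyp2c68, Cyp2c69, Cyp2c70, Cyp3a11, Cyp3a41a and Cyp8b1. None of these genes is among the 29 members that reached the levels for naming given below. These matches are letters in a window and do not show that a factor binds there.

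Taken as a sum, the members made up more of the RNA of male than of female kidney. In bulk they held 0.883% ± 0.022 of the counts of intact Balb/c male kidney, 0.829% ± 0.008 of the cold and 0.841% ± 0.041 of the warm C57BL/6J suspension, 0.371% ± 0.044 of intact Balb/c female kidney and 0.327% ± 0.024 of the female cold suspension. In proximal tubule-like barcodes the share was 0.498% ± 0.040 in male and 0.244% ± 0.025 in female Balb/c cells, and 0.578% ± 0.010 in male and 0.332% ± 0.076 in female nuclei washed at 500g. Male and female libraries did not overlap in cells, nuclei or bulk, with an exact two-sided permutation p of 0.1 each, the smallest that 3 against 3 allows. The share of the warm C57BL/6J cells (0.491% ± 0.013) lay above that of the cold cells (0.417% ± 0.049) with no overlap (exact permutation p = 0.1), and that of cryopreserved female cells (0.172% ± 0.027) lay below that of fresh ones (exact permutation p = 0.1). The makeup of the proximal tubule-like barcodes moved with these shares: S3-like barcodes were 23.9% to 35.3% after warm and 16.7% to 22.5% after cold dissociation, and S2-like ones were 4.35% to 10.6% of the cryopreserved and 15.3% to 18.8% of the fresh female cells. In intact bulk the summed proximal tubule markers stood at 18918 to 22163 CPM in females and 24178 to 24482 in males, with 3 of 10 markers higher and 3 lower in females without overlap. All 7 principal, all 7 intercalated and all 6 podocyte markers were higher in female bulk without overlap. The part of these markers and segments in the shares was not tested, and in bulk fewer cells of a type and less RNA per cell cannot be told apart.

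**Figure D1:**
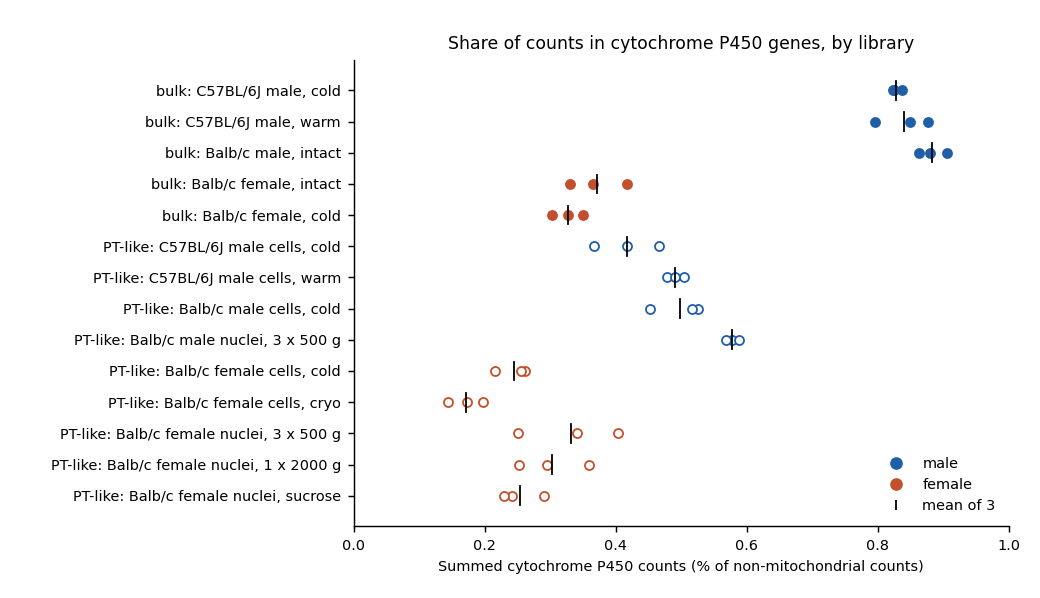
Share of non-mitochondrial counts that fall in cytochrome P450 genes (x axis, percent), with a dot for each library and a tick for the mean of 3, in bulk libraries (filled) and in proximal tubule-like (PT-like) barcodes (open). Intact Balb/c male bulk stands at 0.883% and intact female bulk at 0.371%, and no male library of cells or nuclei overlaps the female ones of the same kind.

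A few genes carried most of this sum. The top 5 members held between 72.6% and 83.0% of the member counts in the bulk groups. Per kilobase of exon, Cyp4b1, a hydroxylase of fatty acids and of some foreign compounds, ranked first in all 3 male bulk groups, at 1459 ± 195 CPM per kilobase in intact Balb/c kidney, 1472 ± 22 in the cold and 1509 ± 115 in the warm C57BL/6J suspension. Cyp2e1, which oxidizes ethanol and acetone, came next in intact Balb/c male kidney at 730 ± 94, followed by Cyp2j5, an arachidonic acid epoxygenase, at 545 ± 31. In the C57BL/6J suspensions Cyp2j5 (539 ± 10 cold, 504 ± 9 warm) and Cyp2e1 (458 ± 63 and 490 ± 27) were closer to each other than in intact Balb/c kidney. In intact female kidney the order was Cyp2j5 (316 ± 22), Cyp2d26 (263 ± 21), Cyp4a14 (237 ± 48), Cyp4a10 (207 ± 43) and Cyp4b1 (192 ± 26), and neighbors from Cyp2d26 downward were within their spread. Cyp2d26, of a family that oxidizes many drugs, led in the female cold suspension at 354 ± 1. By the rule for naming genes, 29 members reached a mean of 20 CPM in a bulk group or 50 CPM in proximal tubule-like barcodes, and 65 stayed under both.

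Balb/c females and males differed in many members, in both directions. In intact bulk, 7 of 43 tested members were higher and 15 lower in females, where 7.05% and 13.1% of all 16293 genes tested were called. In proximal tubule-like cells 8 of 23 were higher and 5 lower (11% and 7.21% of all genes), and in nuclei 8 of 44 were higher and 12 lower (9.52% and 19.7%). With 9 counts put in for listed zeros the split in cells was 6 higher and 12 lower. The 9 counts went into libraries of either sex, and the proximal tubule-like counts totaled 2977705 in males and 23588920 in females. They make a higher CPM in males, so this split leans toward lower in females. The share of all genes at this setting is not given. Of the 23 members tested in all 3, 11 were called in each, 6 higher and 5 lower, where 1.32% and 1.07% of the 9806 genes tested in all 3 were. Cyp2c44, Cyp2d22, Cyp2d26, Cyp4a10, Cyp4a14 and Cyp4a31 were called higher in females in all 3, and Cyp2a4, Cyp2e1, Cyp2j13, Cyp4a12a and Cyp4b1 were called lower. In cells, male libraries were listed at 0 in all 3 for Cyp2c44 and Cyp4a14 and in 2 for Cyp4a31, and 2 female libraries were for Cyp2j13. The cell bound for Cyp2c44, at least 1.37-fold, lies under the threshold of a call. Segment shares of the proximal tubule-like barcodes, named in each set on its own, also differed without overlap. In cells S3-like barcodes were 2.2% to 3.6% in females and 5.0% to 16.5% in males, and S1-like ones 16.7% to 21.3% and 32.7% to 37.2%. In nuclei S1-like barcodes were 24.5% to 26.7% in females and 34.6% to 39.5% in males. The S3-like share of nuclei ran the other way from that of cells, at 21% to 24.7% in females and 14.5% to 18% in males. The part of these shares, and of the marker differences in intact bulk given above, in these calls was not tested.

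Among the fatty acid and arachidonic acid enzymes, Cyp2j13 was far higher in males. Its bulk level was 866, 570 and 766 CPM in the 3 intact male kidneys and 1.94, 1.13 and 1.27 in the 3 female ones. The log2 fold change of females over males was -9.11 ± 0.26 (edgeR adjusted p = 3.6e-09). In proximal tubule-like nuclei it stood at 813, 873 and 708 in males and 7.06, 4.93 and 3.98 in females (log2 fold change -7.11 ± 0.23). In cells it was 194, 172 and 149 in males, and in females 0.723 in 1 library with the other libraries listed at 0, which makes it at least 156-fold higher in males. The groups did not overlap in any of the 3 readouts.

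Cyp4b1 and Cyp4a12a, both fatty acid hydroxylases, were also higher in males. Cyp4b1 stood at 3089, 3795 and 2989 CPM in intact male bulk and at 450, 481 and 367 in female bulk (log2 fold change -3.06 ± 0.14). In cells it was 2598, 2222 and 2288 against 360, 462 and 293 (-2.73 ± 0.16), and in nuclei 1498, 1079 and 991 against 119, 270 and 336 (-2.20 ± 0.33). Each female library was below each male one. Cyp4a12a stood at 609, 273 and 454 in intact male bulk against 29.8, 31.6 and 39.3 in females (-3.88 ± 0.26), and at 483, 414 and 588 against 17.4, 15.6 and 20.8 in cells (-4.84 ± 0.14).

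Cyp4a14, an enzyme of the same family that responds to peroxisome proliferators, went the other way. Intact female kidneys held 727, 640 and 483 CPM and male ones 2.88, 2.81 and 3.84, a log2 fold change of 7.46 ± 0.24 (edgeR adjusted p = 9.9e-09). Female proximal tubule-like cells held 302, 291 and 226 while the 3 male libraries were listed at 0, at least 30.5-fold higher in females. Female nuclei held 187, 236 and 486, and male nuclei 1.61 with the other libraries listed at 0, at least 169-fold higher. Its neighbor Cyp4a10 was higher in females by 2.24 ± 0.21 in bulk, 2.64 ± 0.18 in cells and 1.44 ± 0.31 in nuclei on the log2 scale. Cyp4a31 was higher by 1.09 ± 0.21 in bulk and 3.06 ± 0.25 in nuclei and at least 3.59-fold in cells, and the bulk value fell to 0.88 without female replicate 1.

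The Cyp2j family of epoxygenases split between the sexes. Cyp2j11 was higher in females in cells (120, 99.2 and 104 CPM against 32.8, 22.9 and 26.3, log2 fold change 1.94 ± 0.17) and in nuclei (484, 676 and 693 against 199, 208 and 227, 1.66 ± 0.14). It was not called in intact bulk, where females held 266, 219 and 232 CPM and males 202, 151 and 179. Cyp2j7 was higher in female nuclei at 1.01 ± 0.11, just past the threshold, and at 0.99 without female replicate 1. In intact bulk it went the other way, at -0.87, and was not called. Cyp2j9 was lower in female bulk (-1.61 ± 0.12) and called higher in female cells, but the male cell libraries were all listed at 0 and no bound above 1-fold could be given. Cyp2c44, an epoxygenase of the Cyp2c family, was higher in females by 2.72 ± 0.28 in bulk and 1.97 ± 0.24 in nuclei. In cells the 3 male libraries were listed at 0, and the bound of at least 1.37-fold lies under the threshold of a call.

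Among the enzymes of foreign compounds, Cyp2e1 was lower in females in all 3 readouts. Intact males held 1741, 1349 and 1634 CPM in bulk and females 64.9, 51.2 and 32.2 (log2 fold change -5.12 ± 0.26, edgeR adjusted p = 1.5e-07). Male proximal tubule-like cells held 885, 656 and 820 and female ones 40.3, 34.6 and 17.1 (-4.72 ± 0.22), and nuclei held 238, 288 and 298 against 14.1, 15.1 and 12.9 (-4.18 ± 0.11). Cyp2a4, a steroid hydroxylase, stood at 245, 271 and 241 in male and at 35.6, 20.9 and 25.6 in female bulk (-3.33 ± 0.19). It was lower in female cells by 4.63 ± 0.21 and in nuclei by 3.98 ± 0.23 on the log2 scale. Cyp2d9, known from male mouse liver as a testosterone hydroxylase, was lower in female bulk by 4.08 ± 0.25 and in female nuclei by 5.12 ± 0.24.

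Other Cyp2d enzymes went in either direction. Cyp2d26 stood at 498, 487 and 427 in female and 102, 85.1 and 102 in male intact bulk (log2 fold change 2.15 ± 0.12), and at 685, 684 and 601 against 130, 115 and 129 in cells (2.34 ± 0.13). In nuclei it was 141, 132 and 165 against 77.7, 45.2 and 51.7 (1.43 ± 0.20). Cyp2d22 was higher in females by 1.11 ± 0.14 in bulk, 1.59 ± 0.23 in cells and 1.53 ± 0.16 in nuclei. Cyp2d12 was lower in female nuclei (-1.35 ± 0.18), as was Cyp2f2 (-1.35 ± 0.15), which activates naphthalene in the lung. Cyp2b10, a target of the receptor CAR, was at 3.84, 2.81 and 1.58 CPM in male bulk with no count in the female libraries, at least 86.8-fold higher in males when 3 counts are put in for the female group.

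**Figure D2:**
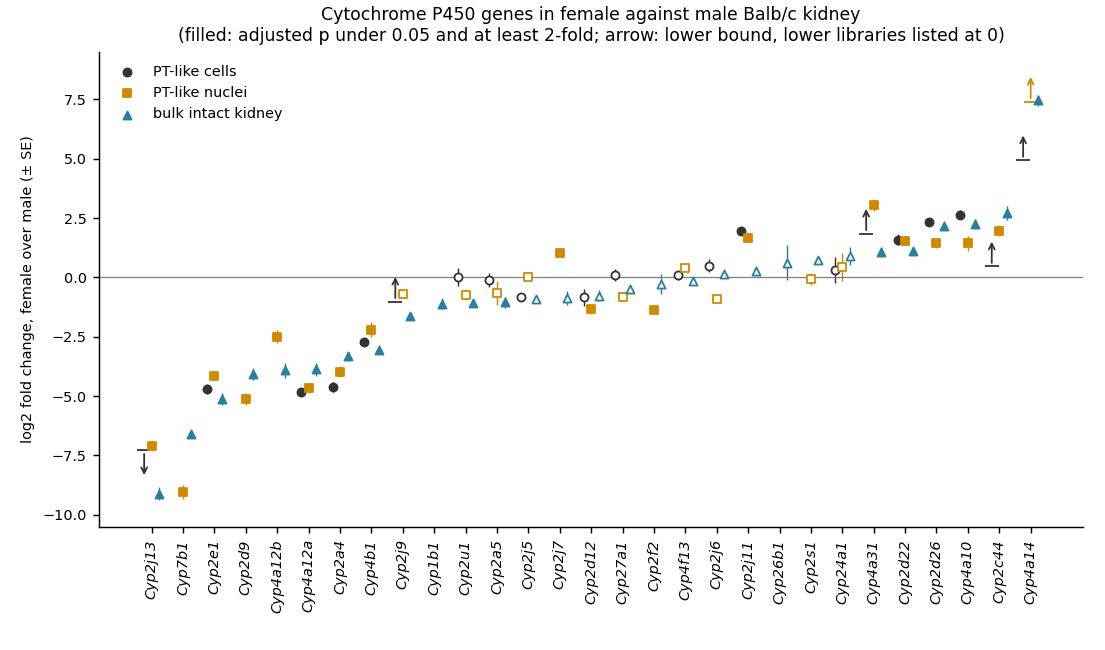
Log2 fold change of Balb/c females over males (y axis) for the named members in proximal tubule-like (PT-like) cells and nuclei and in intact bulk, with bars for the SE, filled symbols for called members and arrows for lower bounds. Cyp2j13, Cyp7b1, Cyp2e1, Cyp4a12a, Cyp2a4 and Cyp4b1 lie below 0 and Cyp4a14, Cyp4a10 and Cyp2d26 lie above it in each readout where they were tested.

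Cyp7b1, an oxysterol hydroxylase of bile acid synthesis that also inactivates steroids, stood apart. It was at 201, 162 and 237 CPM in intact Balb/c male kidney and at 2.21, 2.09 and 2.57 in intact female kidney (log2 fold change -6.59 ± 0.18, edgeR adjusted p = 3.2e-09). Male proximal tubule-like nuclei held 872, 1501 and 1534 and female ones 2.71, 1.89 and 2.19 (-9.04 ± 0.29). The cold-dissociated cells of Balb/c males held 1.21 and 0.717 with the third library listed at 0, so that nuclei were at least 347-fold higher than cells. Introns, 98.7% of this gene, were counted for nuclei and not for cells, and their part in this fold was not tested. Over whole libraries, Cyp7b1 averaged 200 CPM in intact male bulk, 949 in male nuclei and 4.12 in male cells. In the C57BL/6J male suspensions the bulk level was 7.69, 6.99 and 3.73 after cold and 5.44, 4.47 and 6.12 after warm dissociation. No intact C57BL/6J kidney was analysed here, so whether the low level belongs to the strain or to suspensions cannot be told apart.

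Within the male nuclei, Cyp7b1 sat in the S3-like barcodes, at 5075, 6719 and 6716 CPM, with a molecule in 92.7% of them, against means of 84.1 ± 28.9 in S1-like and 209 ± 86 in S2-like barcodes. S3-like barcodes, named in each set on its own, made up 14.5% to 18% of the male proximal tubule-like nuclei and 5.0% to 16.5% of the male cells. S3-like male cells, in a set where no S2-like cluster was named, held Cyp7b1 at 2.81 in 1 library and 0 in the others. In the same male nuclei the endothelial-like barcodes also held Cyp7b1 at 885 CPM, Cyp4b1 at 866, Cyp2j13 at 500 and Cyp2j5 at 523, while the proximal tubule-like levels were 1303, 1189, 798 and 796, and the part of free RNA in these levels was not tested. In female nuclei the endothelial-like level of Cyp2j5 was 29.6 against 748 in the proximal tubule.

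Beside the members, a list of 26 electron donors and regulators was followed in the same comparisons. Females were higher for 3 and lower for 4 of 25 in bulk, higher for 2 and lower for 3 of 26 in nuclei and higher for 3 and lower for 2 of 22 in cells, where the shares of all genes called higher and lower were 7.05% and 13.1% in bulk, 9.52% and 19.7% in nuclei and 11% and 7.21% in cells. The prolactin receptor Prlr was higher in females by 3.59 ± 0.14 in bulk, 6.61 ± 0.31 in cells and 3.61 ± 0.44 in nuclei. The xenobiotic receptor Nr1i2 was higher by 2.27 ± 0.22 in bulk and 1.81 ± 0.15 in nuclei, and the repressor Bcl6 was lower by 2.13 ± 0.40 in bulk, 4.41 ± 0.18 in cells and 2.92 ± 0.40 in nuclei. The reductase Por, which passes electrons to the microsomal members, was not called in any of the 3.

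Strain could be compared in fresh cold-dissociated proximal tubule-like cells of males. Of 23 members tested, 6 were higher and 1 was lower in C57BL/6J than in Balb/c cells, where 3.2% and 2.05% of all 8893 genes were called. S3-like barcodes, named in each set on its own, were 16.7% to 22.5% of the C57BL/6J and 5.0% to 16.5% of the Balb/c cells. Their part in these calls was not tested. With 9 counts put in for listed zeros the split was 7 higher and 5 lower. The 9 counts make a higher CPM in Balb/c (2977705 counts in all) than in C57BL/6J (8862163), so this split leans toward lower in C57BL/6J. The share of all genes at this setting is not given. Cyp2d12 stood at 278, 255 and 213 CPM in C57BL/6J and 14.6, 26.5 and 50.0 in Balb/c cells, a log2 fold change of 3.18 ± 0.25 (edgeR adjusted p = 4.2e-07). In bulk, which was not tested across strains since the C57BL/6J libraries were suspensions and the Balb/c male ones intact kidney, it stood at 256, 264 and 194 in the cold suspension and at 25, 16.8 and 23.1 in the intact kidney. These bulk libraries also differed in read length, and Cyp2d reads can fall to near-identical copies. Cyp4a12a was the member that was lower in C57BL/6J, at 69.6, 70.3 and 96.6 against 483, 414 and 588 (-2.53 ± 0.16, adjusted p = 7.1e-08). The remaining 5 were Cyp4a10 (1.21 ± 0.20), Cyp4a31 (at least 7.74-fold), Cyp4a14 (at least 3.42-fold), Cyp2c44 (at least 2.26-fold) and Cyp4a12b (at least 1.92-fold). Balb/c libraries were listed at 0 in all 3 for Cyp4a14 and Cyp2c44, in 2 for Cyp4a31 and in 1 for Cyp4a12b. The bound for Cyp4a12b lies under the threshold of a call. Of the members called higher, only Cyp2d12 and Cyp4a10 were above 0 in every library. Cyp4a12b was no longer called without Balb/c replicate 1 (adjusted p = 0.069), Balb/c replicate 2 (adjusted p = 0.080) or C57BL/6J replicate 2 (adjusted p = 0.052), all from edgeR. Cyp4a14 varied between the C57BL/6J mice, at 8.99, 16.9 and 63.5 CPM in cells and 18.5, 33.2 and 118 in the cold bulk suspension.

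**Figure D3:**
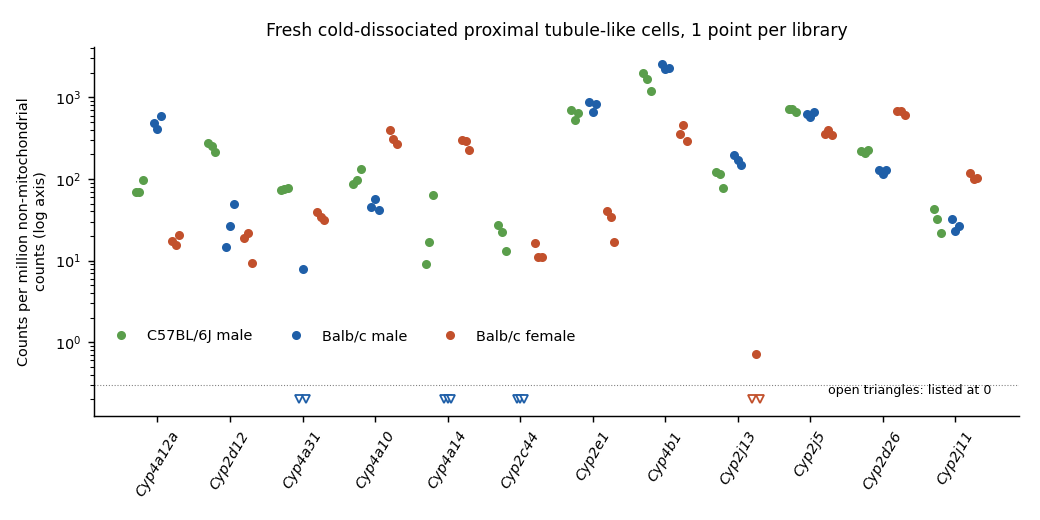
Level in fresh cold-dissociated proximal tubule-like cells (y axis, CPM, log scale) of 12 members in each library of C57BL/6J males, Balb/c males and Balb/c females, with open triangles for libraries listed at 0. Cyp2d12 is high in C57BL/6J males alone, at 213 to 278 CPM, Cyp4a14 at 226 to 302 in females, and Cyp2e1 at 656 to 885 in Balb/c males against 17.1 to 40.3 in females.

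The segments of the proximal tubule differed in their members. Segment values are descriptions, since the barcodes were grouped by their own expression, though without the members. In Balb/c male nuclei, 9 of 21 members with at least 20 CPM were higher without overlap of libraries in S3-like than in S1-like barcodes and 9 were lower, where 23.1% and 18.8% of all 8226 genes at that level were. In female nuclei washed at 500g, 10 of 20 were higher and 10 lower (28.6% and 33.7% of 7613 genes). The split leaned toward S3 in the male cells, with 9 of 16 members higher and 3 lower in Balb/c (12.4% and 19.5% of 5939 genes) and 11 of 19 higher and 2 lower in cold C57BL/6J cells (18.5% and 14.3% of 5478 genes). No S2-like cluster was named in either of these male cell sets. Female cells held 8 of 19 higher and 8 lower (17.1% and 30.1% of 6135 genes). The genes used for clustering are among all genes and not among the members, so these shares are a description. Cyp2a4 (66.7 ± 10.9 in S3-like against 13 ± 3.9 in S1-like male nuclei), Cyp2d9 (184 ± 43 against 28.5 ± 9.0), Cyp2j11 (413 ± 14 against 114 ± 3) and Cyp4a10 (434 ± 174 against 91.2 ± 25.2) were S3-high. Cyp2d26 (142 ± 29 in S1-like against 12.4 ± 9.3 in S3-like), Cyp2d12 (121 ± 35 against 7.15 ± 2.75), Cyp2f2 (93.6 ± 13.6 against 4.56 ± 2.48) and Cyp24a1 (116 ± 32 against 8.14 ± 5.32) were S1-high.

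In female cells Cyp4a10, Cyp4a14 and Cyp4b1, fatty acid hydroxylases, and Cyp2a5, Cyp2d22 and Cyp2e1, which act on foreign compounds, were among the members with their highest mean in S2-like barcodes. These cells held Cyp4a14 at 688 ± 46 CPM in S2-like, 13 ± 2.1 in S1-like and 39.4 ± 26.8 in S3-like barcodes. Cyp4b1 was at 723 ± 114 in S2-like, 202 ± 45 in S1-like and 13.6 ± 5.1 in S3-like barcodes. Female nuclei held Cyp4a14 at 653 ± 309, 24.2 ± 14.7 and 9.37 ± 2.49 and Cyp4b1 at 408 ± 180, 151 ± 69 and 6.00 ± 0.88. In Balb/c males the direction of Cyp4b1 and Cyp2e1 between S1-like and S3-like barcodes differed between cells and nuclei. Male Balb/c cells held Cyp4b1 at 1967 ± 137 in S1-like and 2998 ± 281 in S3-like barcodes, and male nuclei at 1282 ± 283 and 397 ± 151. Cyp2e1 was at 482 ± 38 and 1289 ± 254 in these cells and at 231 ± 23 and 81.5 ± 24.8 in these nuclei. S2-like male nuclei held Cyp4b1 at 1432 ± 262 and Cyp2e1 at 391 ± 69. No S2-like cluster was named in the male cells. A difference in assay therefore cannot be told apart from a difference in what the S3-like label covers.

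**Figure D4:**
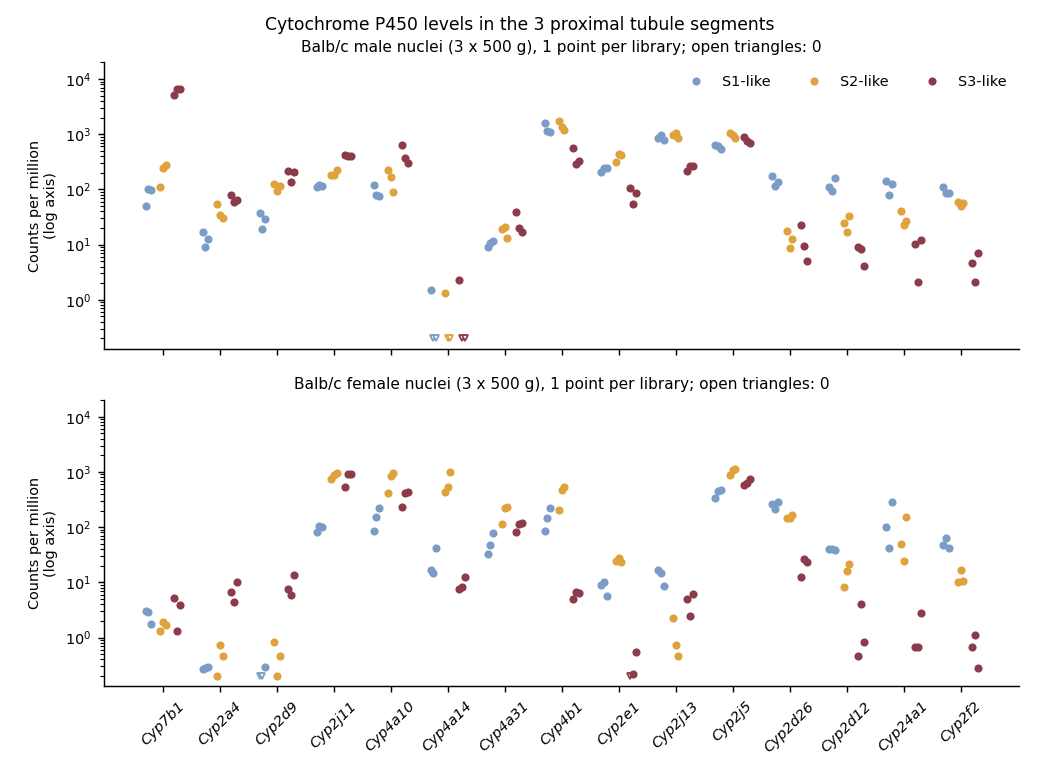
Level of 15 members (y axis, CPM, log scale) in S1-, S2- and S3-like barcodes of Balb/c male and female nuclei washed at 500g, with a point for each library and open triangles at 0. Cyp7b1 rises to 5075 to 6719 CPM in S3-like male nuclei, Cyp2d26 is highest in S1 in both sexes, and Cyp4a14 peaks in S2-like female nuclei.

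Outside the proximal tubule, several members had their highest level in another class. Of the members at 20 CPM or more in some class, the proximal tubule was the highest for 13 of 29 in male nuclei, 12 of 27 in female nuclei, 12 of 25 in male cells, 10 of 25 in female cells and 15 of 30 in cold C57BL/6J cells. The same share over all genes was not computed. A class counted from 10 barcodes a library, so the highest one can be small, and these counts are a description. In female nuclei Cyp7b1 was highest in principal-like barcodes of the collecting duct, at 351, 548 and 307 CPM, and female cells held 54.1, 55.9 and 53.3 there. Cyp20a1, whose substrate is not established, was highest in endothelial-like barcodes, at a mean of 171 in female nuclei, 177 in female cells, 199 in Balb/c male cells and 181 in cold C57BL/6J cells. The retinoic acid hydroxylase Cyp26b1 was also highest in endothelial-like barcodes, at 188 in female cells with a range of 72.7 to 391. Cyp1b1, an estrogen and hydrocarbon hydroxylase, reached 126 in fibroblast-like female nuclei, and the sterol hydroxylase Cyp27a1 reached 218 in macrophage-like ones. Cyp2s1 stood at 95.8 and Cyp39a1, an oxysterol hydroxylase, at 82.6 in intercalated-like female nuclei. Cyp1a1, a target of the aryl hydrocarbon receptor, reached 66.3 in intercalated-like female cells. Cyp4f18, a leukotriene hydroxylase of leukocytes, was at 325 and 370 in the monocyte-like cells of the 2 cold C57BL/6J libraries that held enough of them.

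Nuclei and cells were compared within each sex in proximal tubule-like barcodes, where introns were counted for nuclei and not for cells. In males 18 of 31 members were higher and 6 lower in nuclei, where 44.9% and 21.8% of all 12088 genes were called and the median log2 fold change of all genes was 0.76. Of the 18, the 3 cell libraries were all listed at 0 for 9 and 1 or more for a further 2, which leaves 7 measured in every library. With 9 counts put in for listed zeros the male split was 13 higher and 16 lower. The 9 counts make a higher CPM in cells (2977705 counts in all) than in nuclei (15281250), so this split leans toward lower in nuclei. The share of all genes at this setting is not given. In females 7 of 32 were higher and 8 lower (34% and 31.6% of 12390 genes, median 0.15). Several Cyp2j epoxygenases were higher in nuclei. Cyp2j11 stood at 199, 208 and 227 CPM in male nuclei and 32.8, 22.9 and 26.3 in male cells (log2 fold change 2.50 ± 0.16), and was higher by 1.76 ± 0.14 in female nuclei. Cyp2j6 (2.06 ± 0.26) and Cyp2j13 (1.74 ± 0.16) were higher in male nuclei, and Cyp2j9 (2.54 ± 0.17) in female ones, with at least 8.66-fold in males. Cyp2j7 was at least 6.13-fold higher in male nuclei.

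The members lower in nuclei in both sexes were Cyp2a4, Cyp2a5, Cyp2d26 and Cyp2e1, which act on foreign compounds, and the fatty acid hydroxylases Cyp4a12a and Cyp4b1. Cyp2d26 was lower in nuclei by 1.56 ± 0.20 in males and 2.93 ± 0.13 in females, Cyp2e1 by 1.99 ± 0.15 and 1.91 ± 0.25, Cyp2a5 by 2.22 ± 0.29 and 3.20 ± 0.46, and Cyp4a12a by 2.36 ± 0.15 and 2.65 ± 0.20, all on the log2 scale. Cyp4b1 was lower by 1.46 ± 0.20 in males and by 1.40 ± 0.31 in females, where its libraries overlapped. Scaled by library totals, Cyp4b1 was lower in nuclei by 0.99 in males and 0.63 in females on the log2 scale and was not called. Female Cyp2a4 was lower by 1.03 ± 0.31, with overlap, and by 0.78 without nuclei replicate 2. Scaling by library totals turned the female split to 14 higher and 4 lower, with the median of all genes at 0.91. The shares of all genes called at that scaling are not given. S3 markers moved with this comparison: their sum was 1809 to 2054 CPM in male cells and 5554 to 6545 in male nuclei, and 1953 to 2441 and 3186 to 3221 in females, and their part in the result was not tested.

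Gene length varied widely among the members. The longest member with a gene model, Cyp7b1, spans 171389 bases of chromosome 3 (18071950 to 18243338, GRCm38), with 98.7% of it intron, and Cyp2d26 spans 4194 bases of chromosome 15.

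**Figure D5:**
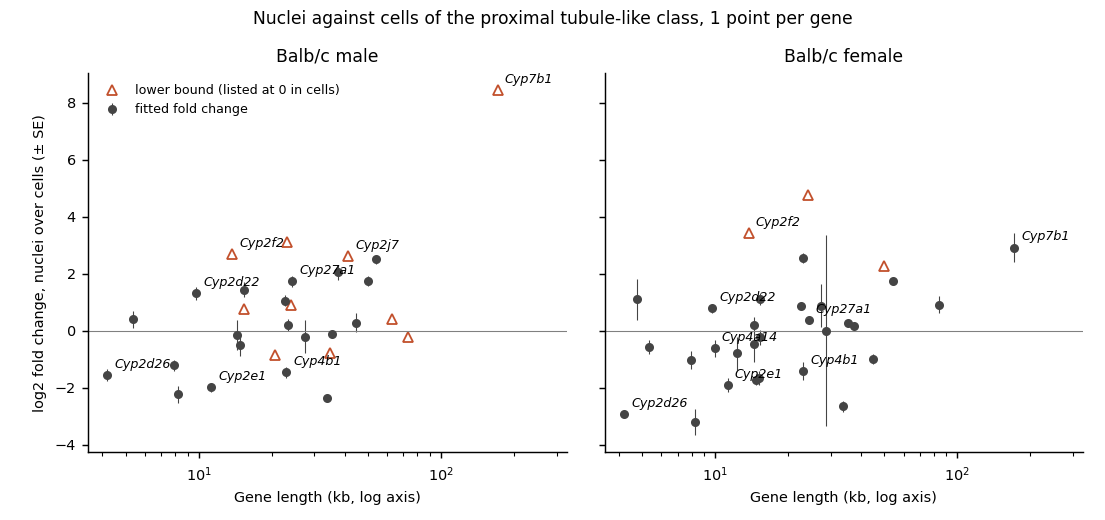
Log2 fold change of nuclei over cells in proximal tubule-like barcodes (y axis) against gene length in kilobases (x axis, log scale) for members tested in Balb/c males and females, with dots for fitted values, bars for the SE and triangles for lower bounds. Cyp2d26, among the shortest, lies below 0 in both sexes and Cyp7b1, the longest, above it, while Cyp4b1 and Cyp4a12a, of 22999 and 33770 bases, also lie below 0.

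The female to male difference was itself different between nuclei and cells for 10 of 31 members, all toward a lower value in nuclei and 0 toward a higher one by edgeR, where 31.1% of 12232 genes were called lower, 2.26% were called higher and the median of all genes was -0.81. The members were Cyp2j9, Cyp2f2, Cyp2c44, Cyp7b1, Cyp2j6, Cyp4a10, Cyp2d26, Cyp27a1, Cyp20a1 and Cyp2u1. For Cyp2d26 the interaction was -1.45 ± 0.26 and for Cyp4a10 it was -1.74 ± 0.43 (edgeR adjusted p = 0.00024 and 0.0034). With 1 library left out these ran from -1.53 to -0.60 and from -2.01 to -0.88, and neither was called without female or male nuclei replicate 1, nor Cyp2d26 without female nuclei replicate 2. At an unadjusted p under 0.05 there were 1 higher and 12 lower members, with no share of all genes given at that cut. With RLE size factors edgeR called 2 higher and 6 lower with a median of -0.31 over all genes, so that the split depended on the scaling. DESeq2 also called 2 higher and 6 lower, with a median of -0.24.

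Intact female kidney was compared with the cold suspension made from female kidney. Of 42 members, 4 were higher in intact tissue and 0 lower, where 3.51% and 1.83% of 16516 genes were called. At an unadjusted p under 0.05, 12 were higher and 10 lower, and DESeq2 called the same numbers as edgeR, 4 and 0. The share of all genes at the unadjusted cut is not given, so whether these 12 and 10 are many cannot be told. Cyp2a4 stood at 35.6, 20.9 and 25.6 CPM in intact tissue and 3.82, 1.98 and 1.73 in suspension (log2 fold change 3.51 ± 0.29, edgeR adjusted p = 4.1e-05). Cyp2d9 was higher by 2.89 ± 0.33, Cyp1b1 by 2.98 ± 0.27 and Cyp4f14, a leukotriene hydroxylase, by 1.67 ± 0.14. Cyp2a4 and Cyp2d9 were S3-high in male nuclei, and Cyp1b1 was highest in fibroblast-like nuclei. The summed S3 markers stood at 5589 to 5947 in intact tissue and 1807 to 1921 in suspension, with 8 of 10 markers higher without overlap, and all 6 fibroblast markers were higher, their sum at 123 to 161 against 38.1 to 67.8. The 7 S1 markers were lower in intact tissue. In bulk, fewer cells of a type and less RNA per cell cannot be told apart, and the part of these markers in the result was not tested. S3-like barcodes were 2.2% to 3.6% of fresh female proximal tubule-like cells and 21% to 24.7% of the nuclei.

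Warm and cold dissociation differed in few members. In bulk suspensions of C57BL/6J kidney 1 of 38 members was higher after warm dissociation and 1 lower (1.54% and 0.753% of 14081 genes). Cyp26b1 stood at 40.0, 43.5 and 29.5 CPM after warm and 8.85, 17.2 and 22.7 after cold dissociation (log2 fold change 1.23 ± 0.25, edgeR adjusted p = 0.0079), and at 0.88 without cold replicate 1. Without overlap, all 6 connecting tubule, 6 of 7 intercalated, 5 of 6 distal convoluted tubule and 5 of 7 principal markers were higher after warm dissociation. All 7 S1 and 5 of 6 podocyte markers were lower, and of 8 endothelial markers 1 was higher and 2 lower. The part of these markers in the Cyp26b1 call was not tested. Cyp4f18 was lower, at 1.23, 2.62 and 1.14 against 3.59, 4.30 and 5.43 (-1.43 ± 0.34, adjusted p = 0.020), and was no longer called (adjusted p from 0.055 to 0.090) without warm replicate 1 or 3 or cold replicate 2 or 3. Many leukocyte markers were also lower in the warm suspensions without overlap, and 0 were higher. The lower ones were 5 of 6 B cell, 4 of 6 monocyte, 3 of 5 neutrophil, 3 of 6 dendritic, 2 of 6 macrophage, 2 of 5 NK and 1 of 6 T cell markers. The monocyte sum stood at 81.4 to 102 against 148 to 178 CPM, and the part of these markers in the Cyp4f18 call was not tested. In proximal tubule-like cells 1 of 26 members was higher and 0 lower (0.642% and 0.797% of 9659 genes), and DESeq2 also called 1 higher and 0 lower. At an unadjusted p under 0.05 there were 5 higher and 1 lower, with no share of all genes given. The member called by edgeR was Cyp2d9, at 93.8, 139 and 101 against 71.9, 52.1 and 38.5 (1.12 ± 0.22, edgeR adjusted p = 0.015). Its call was lost without warm replicate 1 or 2 or cold replicate 2 or 3, at a log2 fold change of 0.90 to 1.24. The S3 marker sum of these cells was 1970 to 2273 after warm and 1141 to 1862 after cold dissociation, S3-like barcodes were 23.9% to 35.3% and 16.7% to 22.5%, and their part in this call was not tested.

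Storage and nuclei protocols moved few members. After methanol fixation 0 of 26 members were higher and 0 lower than in fresh cold C57BL/6J cells by edgeR (2.1% of genes were called higher and 3.42% lower), with 0 higher and 3 lower at an unadjusted p under 0.05 and 0 called by DESeq2. After cryopreservation of female cells, which left 69 to 113 proximal tubule-like barcodes a library, 0 of 13 members were higher and 2 lower by edgeR (1.74% and 1.3% of 9586 genes), with 0 and 5 at an unadjusted p under 0.05 and 0 and 1 by DESeq2. Shares of all genes at the unadjusted cut are not given for methanol or cryopreservation. The methods describe the stored and fresh female cells as aliquots of the suspensions, but neither their labels nor their column names tell which stored library goes with which fresh one, so the female cells were compared without pairing. Cyp4a10 stood at 184, 172 and 99.8 CPM after storage and 394, 313 and 266 fresh (log2 fold change -1.25 ± 0.20, edgeR adjusted p = 0.00025), and fell by 0.99 without fresh replicate 1. In fresh cells its level was 667 ± 103 in S2-like and 93.7 ± 23 in S1-like barcodes, and S1-like barcodes were 28.9% to 51.3% of the stored and 16.7% to 21.3% of the fresh cells while the S2-like share was lower after storage, as given above. The part of this makeup in the call was not tested. Cyp2u1, a fatty acid hydroxylase, had no counts in the stored cells and 6.27, 6.15 and 7.16 CPM in the fresh ones. With a floor of 3 counts over the stored group it was at least 1.45-fold higher in fresh cells, a bound under the threshold of a call. Cyp2f2 was the 1 member of 48 that differed between nuclei spun once at 2000g (43.7, 55.4 and 51.9 CPM) and washed at 500g (18.6, 26.3 and 18.4), with a log2 fold change of 1.25 ± 0.13 (edgeR adjusted p = 0.0011), where 3.27% of 15060 genes were called higher and 0.272% lower. Against the same washed nuclei, sucrose nuclei held more Cyp2c66 (1.14 ± 0.17) and Cyp1b1 (1.25 ± 0.34) and less Cyp24a1 (-1.99 ± 0.63), 2 higher and 1 lower of 48 (3.11% and 0.666% of 14862 genes). The Cyp24a1 libraries overlapped, at 11.7, 22.8 and 20.6 against 46.5, 20.9 and 147, and the call was lost without 500g replicate 3 (-0.89). Cyp1b1 was under 1 CPM in both groups. In bulk Cyp24a1 stood at 171, 46.3 and 228 in the female cold suspension and 166, 447 and 219 in the C57BL/6J cold suspension.

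Set against bulk libraries of the same strain and sex, the members at 20 CPM or more in bulk were mostly lower in the 10x sums. Over these members, the median ratio of whole 10x libraries to bulk was 0.339 for 23 members of cold and 0.411 for 25 of warm C57BL/6J cells, 0.425 for 17 of female cells, 0.376 for the 20 of 22 of male cells that were above 0, 0.470 for 17 of female nuclei and 0.701 for 22 of male nuclei. Among these members an excess over bulk of more than 2-fold was seen for 2 in male nuclei and for 0 in the other 5 comparisons. Picking members by their bulk level leaves out those that are low in bulk and high in 10x, so the medians and counts lean toward lower 10x values. Cyp2j7 and Cyp2f2 were left out, with highest group means of 6.53 and 3.14 CPM in bulk and 104 and 57.8 in proximal tubule-like barcodes. The same ratios over all genes were not computed. Cyp7b1 was 4.74-fold higher in the male nuclei than in intact male bulk and 48.7-fold lower in the male cells than in that bulk. Cyp2e1 was 3.52-fold lower in male cells and 6.86-fold lower in male nuclei than in intact bulk. Cyp2j13 was 7.43-fold lower in male cells and 1.23-fold lower in male nuclei. The C57BL/6J and female cells were set against bulk of the dissociated suspension, and the male cells and all nuclei against bulk of intact kidney, so the medians are not like for like. These ratios compare counts of transcript ends in 10x with counts over whole transcripts in bulk, and are descriptions. The nuclei counts also include introns, which make up 98.7% of Cyp7b1, so ratios of nuclei and of cells are unlike measures.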

How the data were processed

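Gene counts of 27 cell, 12 nuclei and 15 bulk libraries were used as the authors deposited them. Per the labels and the study's methods, the authors made the 10x counts with Cell Ranger 2.1.1 on mm10, with introns counted for nuclei only, called barcodes with EmptyDrops, and filtered barcodes and genes, and they made the bulk counts with Trim Galore, STAR 2.6.1a on GRCm38, Picard and featureCounts. Whether strand and duplicates entered the bulk counting is not given in the sources used here. In most 10x libraries many genes are at 0 in the files, among them 23 to 27 of 50 listed members in the male Balb/c cells, and 0 to 852 genes a library appear in 1 to 9 barcodes. Mitochondrial genes were dropped.

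Barcodes were clustered in 5 sets (2000 variable genes without members, 30 principal components, 20 neighbors, Leiden resolution 2, leidenalg 0.10.2, Python 3.11.15) and named from marker lists. No doublet caller was run and doublets were kept. Counts were summed per library and class and tested over all genes in edgeR 4.0.16 (R 4.3.3) by its quasi-likelihood F test, adjusted after Benjamini and Hochberg, each comparison on its own groups of 3 libraries, with TMM scaling and a filter on low counts. Scripts were tested on simulated data. For summed shares an exact permutation test, two-sided, was used. The p-values measure the spread between kidneys of different mice. Alternatives were DESeq2 1.42.0, other scalings, no filter, a larger fold threshold, Leiden resolution 1 and leaving out each library. Library totals, 9 counts for listed zeros and a block by the number that column names share were chosen after seeing the data.

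Members named with values had a mean of at least 20 CPM in a bulk group or 50 CPM in proximal tubule-like barcodes, or were called, and Cyp1a1 and Cyp39a1 were named after their values were seen. The members and lists were chosen with earlier results of these data known. Promoters came from RefSeq.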

Additional observations from a re-analysis of the deposited data

Results flagged for a closer look

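The female to male difference of 10 of 31 tested members differed between proximal tubule-like nuclei and cells by a test of the interaction itself, fitted with edgeR across all genes, where 31.1% of all genes were called lower and the median of all genes was -0.81 on the log2 scale. The share of members called was close to that of all genes, and RLE size factors and DESeq2 each gave 2 higher and 6 lower members, with medians of -0.31 and -0.24 over all genes. Among members measured above 0 in every library of male cells, the interaction was -1.95 for Cyp2j6 (adjusted p = 3.4e-05), -1.74 for Cyp4a10 (adjusted p = 0.0034), -1.45 for Cyp2d26 (adjusted p = 0.00024), -1.44 for Cyp27a1 (adjusted p = 8.7e-05), -1.33 for Cyp20a1 (adjusted p = 0.0080) and -1.28 for Cyp2u1 (adjusted p = 0.010). With 1 nuclei library left out, these values came as near 0 as -0.60 for Cyp2d26, -0.61 for Cyp20a1, -0.67 for Cyp2u1, -0.88 for Cyp4a10 and -0.88 for Cyp27a1. Cyp20a1, Cyp27a1 and Cyp2u1 lost their call whichever of the 6 nuclei libraries was left out, Cyp4a10 without female or male nuclei replicate 1 and Cyp2d26 without these or female nuclei replicate 2. For the other 4, male cell libraries were listed at 0, and the fitted values of -9.43 for Cyp2j9 (adjusted p = 4.7e-05), -8.59 for Cyp2f2 (adjusted p = 0.017), -8.24 for Cyp2c44 (adjusted p = 0.0049) and -7.58 for Cyp7b1 (adjusted p = 0.00095) are no measure of size.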

How the results depend on the processing

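Groups of 3 libraries and the listed zeros set the limits. With a log2 fold change of at least 2 required, the called members numbered 14 for male and 8 for female nuclei against cells, 10 for female against male nuclei, 4 for the interaction, 1 for cryopreservation, and 0 for warm against cold in bulk and in cells, for nuclei spun at 2000g and for sucrose nuclei. DESeq2 called 1 member in bulk warm against cold and 1 after cryopreservation, where library totals also gave 1. With 9 counts put in for listed zeros, strain gave 12 calls, 7 higher and 5 lower, and the sign turned for Cyp2b13 (-0.60), Cyp2c44 (-0.42), Cyp2c66 (-0.0526) and Cyp4a32 (-0.65) in male nuclei against cells, for Cyp2j9 (-0.85) in female against male cells and for Cyp2c44 (0.69) and Cyp2f2 (0.0317) in the interaction. The same setting gave 13 higher and 16 lower members in male nuclei against cells and 6 and 12 in female against male cells. In these comparisons 9 counts make a higher CPM in the group with fewer counts, so splits and signs lean toward that group. Leaving out 1 library at a time gave 1 to 2 calls in bulk warm against cold, 6 to 11 in the interaction, 0 to 2 in warm against cold cells, 0 to 2 after cryopreservation, 1 to 2 for nuclei spun at 2000g and 1 to 5 for sucrose nuclei. Without female or male nuclei replicate 1 the interaction gave 6 calls. Without any of warm replicates 1 and 2 and cold replicates 2 and 3 Cyp2d9 was not called, and without 500g replicate 2 sucrose gave 5 calls. The summed share of warm minus cold bulk ran from -0.0059 to 0.0345 percentage points and turned without warm replicate 2 (-0.0059), that of 2000g minus 500g nuclei ran from -0.0697 to 0.0064 and turned without 500g replicate 3 (0.0064), and that of methanol minus fresh turned as a share of all counts (0.0183). The causes were not tested. Leiden resolution 1 left male nuclei against cells at 24 calls.

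Replicate numbers follow accession order. Column names of the C57BL/6J libraries share a number between cold, warm and methanol libraries, and the methods describe stored cells as aliquots of the suspensions. With that number as a replicate block, warm against cold cells gave 1 call, Cyp2d9 at 1.12, and methanol against fresh gave 0, as without the block.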
